A study of Chlamydomonas reinhardtii with 9 samples.

Results

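Cells of Chlamydomonas reinhardtii that had been without added iron for 24 h were compared with cells at 12 h. The comparison uses 4 of the 18 columns of deposited RPKM values (reads per kilobase of transcript, scaled to the reads of the library), 2 for each of the 2 times, out of 9 times sampled. All columns come from the wild-type laboratory strain CC-4532, grown with acetate in TAP medium under continuous light. Cells in mid-log phase were washed in TAP lacking Fe-EDTA and moved to fresh medium of that kind, so both groups share the strain, the wash, the light, the acetate and the absence of added iron, and differ in 12 hours of culture. A culture given iron was not among the samples, so the age of the culture and the length of time without iron cannot be told apart. Only 1 sample is registered for each time, and its 2 columns are biological duplicates according to the series' design text. Whether they were separate cultures is not stated. The p-values here therefore cover only the spread between duplicate columns, pooled over all 9 times rather than taken from 12 and 24 h alone.

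Iron sits in the iron-sulfur clusters of photosystem I, in the cytochrome b6f complex and in the respiratory chain. An alga that runs short of it is known to raise its surface reductase and ferroxidase, to take photosystem I and its antenna apart, and, when acetate is present, to keep its respiration. The light-harvesting antenna proteins and most small photosystem subunits are encoded in the nucleus and imported into the chloroplast. The plastid has its own ribosome, whose proteins are largely encoded in the nucleus as well. Division in this alga runs through a long growth phase followed by rounds of DNA replication, mitosis and cell separation inside the mother wall.

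Between 12 and 24 h the transcripts of the antenna fell, and many of the plastid ribosome, plastid chaperonins, plastid and cell division and the cell wall rose. Of 17301 transcripts, 13306 had a mean of at least 1 RPKM at either time and were tested. A transcript is called here when limma-trend put its change at 2-fold or more in one direction, with a Benjamini-Hochberg adjusted p under 0.05, both on the deposited values and after each column was centred on its median. By that rule 780 transcripts (5.86%) were higher and 301 (2.26%) lower at 24 h, together 8.12% of those tested. On the deposited values alone 1931 (14.5%) were higher and 301 (2.26%) lower, and after centring alone 780 (5.86%) were higher and 840 (6.31%) lower. The direction that led therefore depended on the scaling. Log2 changes below are given on the log2(RPKM + 1) scale as deposited, with their standard error, a scale on which changes of scarce transcripts look smaller than they are. Centring takes 0.49 off each of them, and the median of all tested transcripts was 0.40 before it. RPKM is a share of a library, so less RNA per cell, fewer cells with that RNA and more RNA of other kinds cannot be told apart.

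The 4 libraries held 21.8 M and 24.9 M reads at 12 h and 28.4 M and 16.2 M at 24 h, as worked out from the values themselves. Duplicates correlated at 0.987 at 12 h and 0.989 at 24 h across transcripts, and 94.2% and 96.2% of transcripts lay within 1.5-fold between them. A value of 0 allows up to 3 reads, which at the median transcript length is 0.0471 to 0.0822 RPKM in these 4 libraries, for counting error only. The lowest tested transcript had 1.001 RPKM at its higher time and the highest left out had 0.999. Of those tested, 1676 reached 1 RPKM at one time only, among them 161 of the 780 called higher and 35 of the 301 called lower, and such transcripts could enter only by differing. Both 24 h values lay beyond both 12 h values in 779 of the 780 and in 300 of the 301. Called transcripts were picked for a change of at least 2-fold against a small spread, so the rule largely sets this. The same count over all tested transcripts was not made. This limit also holds where single called transcripts are said below not to overlap. Each of the 2 duplicate pairs taken alone changed at least 2-fold on the deposited scale in all 780 higher transcripts and in 254 of the 301 lower ones. These counts cannot be set against each other. Centring takes 0.49 off each log2 change, so a rise had to pass 2-fold as deposited by that margin, and a fall only had to reach 2-fold.

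**Figure D1:**
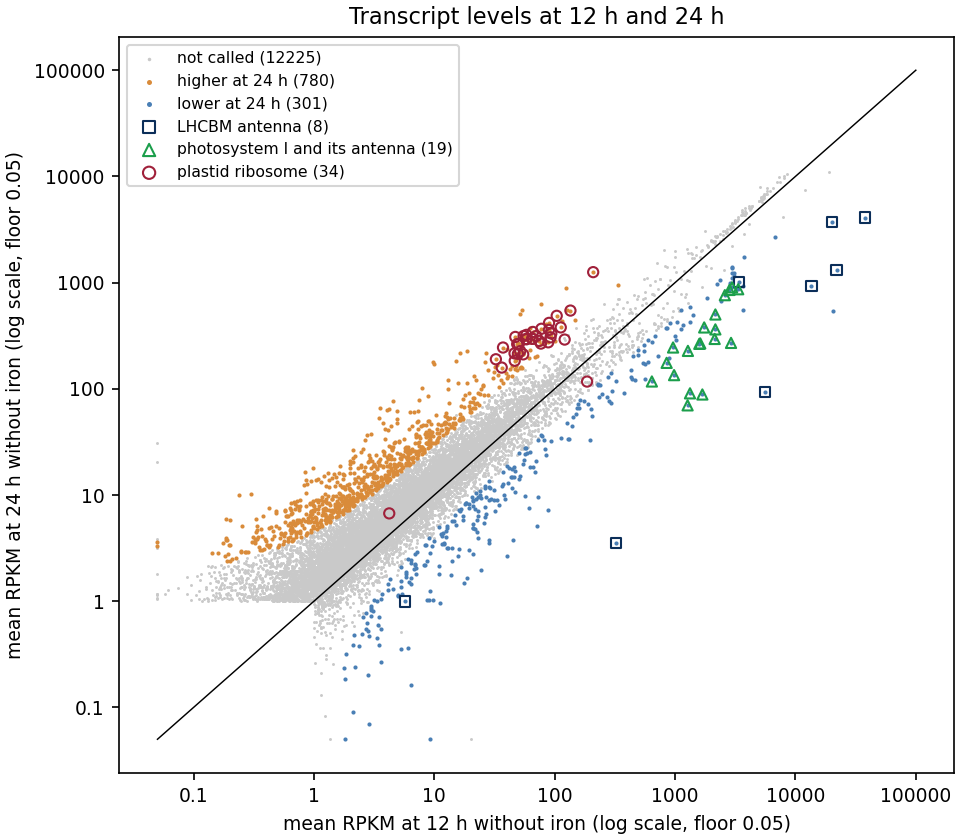
Mean RPKM at 12 h (horizontal, log scale) against mean RPKM at 24 h (vertical, log scale) for the 13306 tested transcripts, with values under 0.05 drawn at 0.05 and the line of equal level in black. The 8 LHCBM and 19 photosystem I transcripts lie below the line, and all but 1 of the 34 plastid ribosome transcripts lie above it.

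The 301 lower transcripts spanned all levels. By the mean of both times 64 of them were under 5 RPKM and 85 from 5 to 20 RPKM. Their median was 29.6 RPKM at 12 h, against 4.65 RPKM for all tested. By 24 h it was 9.34 RPKM, against 6.93 RPKM. Picking transcripts that fell favours high 12 h values, so the rule sets part of the gap at 12 h. These 301 held 27.6% and 26.8% of all RPKM in the 12 h duplicates and 5.82% and 6.23% in the 24 h duplicates. The 780 higher transcripts held 0.971% and 0.893% at 12 h and 4.66% and 4.69% at 24 h. Since calls were made by direction, the rule also sets which way these shares moved, though not how large they were. Among the 145 transcripts with a mean over 1000 RPKM, 0 were called higher and 31 lower (21.4%), where among the 6022 with a mean under 5 RPKM 235 were called higher (3.9%) and 64 lower (1.06%). From 100 to 1000 RPKM as many were called higher as lower, 64 each of 594 (10.8%). The median change was 0.42 in the weakest class, 0.43 from 5 to 20 RPKM, 0.39 from 20 to 100 RPKM, 0.08 from 100 to 1000 RPKM and 0.24 above 1000 RPKM.

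The LHCBM proteins bind most of the chlorophyll of photosystem II in its outer antenna, and all 8 transcripts that the table names LHCBM fell. The sums below cover these 8 only; the table gives no name to Cre12.g548950, whose 12 h values of 17913 and 22859 RPKM were as high as those of the abundant members and which is not among them. Their summed level was 107300 and 98580 RPKM at 12 h, 12.2% and 11.1% of the whole, and 10520 and 11820 RPKM at 24 h, 1.3% and 1.47%. The median change over the 8 was -3.55, against 0.40 over all tested transcripts. LHCBM1, the most abundant at 12 h, had 41532 and 34448 RPKM at 12 h and 4149 and 4047 RPKM at 24 h. It fell by 3.21 ± 0.16 on the log2 scale (adjusted p = 4e-09), and every 24 h value lay under every 12 h value.

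Members of the family fell by very different amounts. LHCBM8 went from 319 and 330 RPKM to 3.38 and 3.64 RPKM, a log2 change of -6.18 ± 0.29 (adjusted p = 2.54e-09), the largest fall among transcripts with a symbol. LHCBM4 went from 6288 and 4959 RPKM to 103 and 84.6 RPKM, a log2 change of -5.89 ± 0.13 (adjusted p = 1.28e-11). LHCBM5 had 3652 and 3178 RPKM at 12 h and still 1014 and 1019 RPKM at 24 h, a log2 change of -1.74 ± 0.13 (adjusted p = 1.66e-07). Before the step LHCBM4 stood above LHCBM5, and after it LHCBM5 stood above LHCBM4, with no overlap of their duplicates at either time.

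Between these extremes lay LHCBM2, with a log2 change of -4.07 ± 0.12 from 22581 and 21324 RPKM to 1180 and 1445 RPKM. LHCBM6 changed by -3.89 ± 0.13, from 13312 and 13851 RPKM to 777 and 1080 RPKM. LHCBM3 changed by -2.44 ± 0.21, from 19581 and 20486 RPKM to 3287 and 4142 RPKM. LHCBM9 was scarce throughout, with 4.05 and 7.42 RPKM at 12 h and 0.55 and 1.44 RPKM at 24 h, and fell by 1.75 ± 0.21. Several LHCBM genes are near-identical copies, and how the authors' counting divided reads among them is not given in the sources used here, so the split within the family is uncertain. At 48 h the mean levels were 618 RPKM for LHCBM1, 41.9 RPKM for LHCBM4, 53.4 RPKM for LHCBM5 and 3.24 RPKM for LHCBM8.

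All 19 transcripts of photosystem I and its LHCA antenna fell, with changes from -4.27 to -1.72 and a median of -2.48. Photosystem I passes electrons from plastocyanin to ferredoxin through its iron-sulfur clusters, and the LHCA proteins form its light-harvesting belt. The antenna showed the larger changes: LHCA6 had 1522 and 1849 RPKM at 12 h and 68.8 and 108 RPKM at 24 h, a log2 change of -4.27 ± 0.15 (adjusted p = 2.2e-10). LHCA4 had 1218 and 1323 RPKM at 12 h and 53.9 and 85.8 RPKM at 24 h, a log2 change of -4.20 ± 0.21 (adjusted p = 5.03e-09). Neither overlapped between times.

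Among the core subunits PSAG, which helps bind the antenna, had 1323 and 1233 RPKM at 12 h and 224 and 231 RPKM at 24 h and fell by 2.48 ± 0.07 (adjusted p = 4.51e-11). PSAD, the stromal subunit that docks ferredoxin, had 2857 and 3094 RPKM at 12 h and 826 and 978 RPKM at 24 h. PSAD showed the smallest fall of the 19, at 1.72 ± 0.09 on the log2 scale (adjusted p = 3.92e-09). The 12 and 24 h duplicates of PSAG and PSAD did not overlap. Mean levels at 48 h were lower again, at 57.6 RPKM for PSAG, 301 RPKM for PSAD and 15.5 RPKM for LHCA4.

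**Figure D2:**
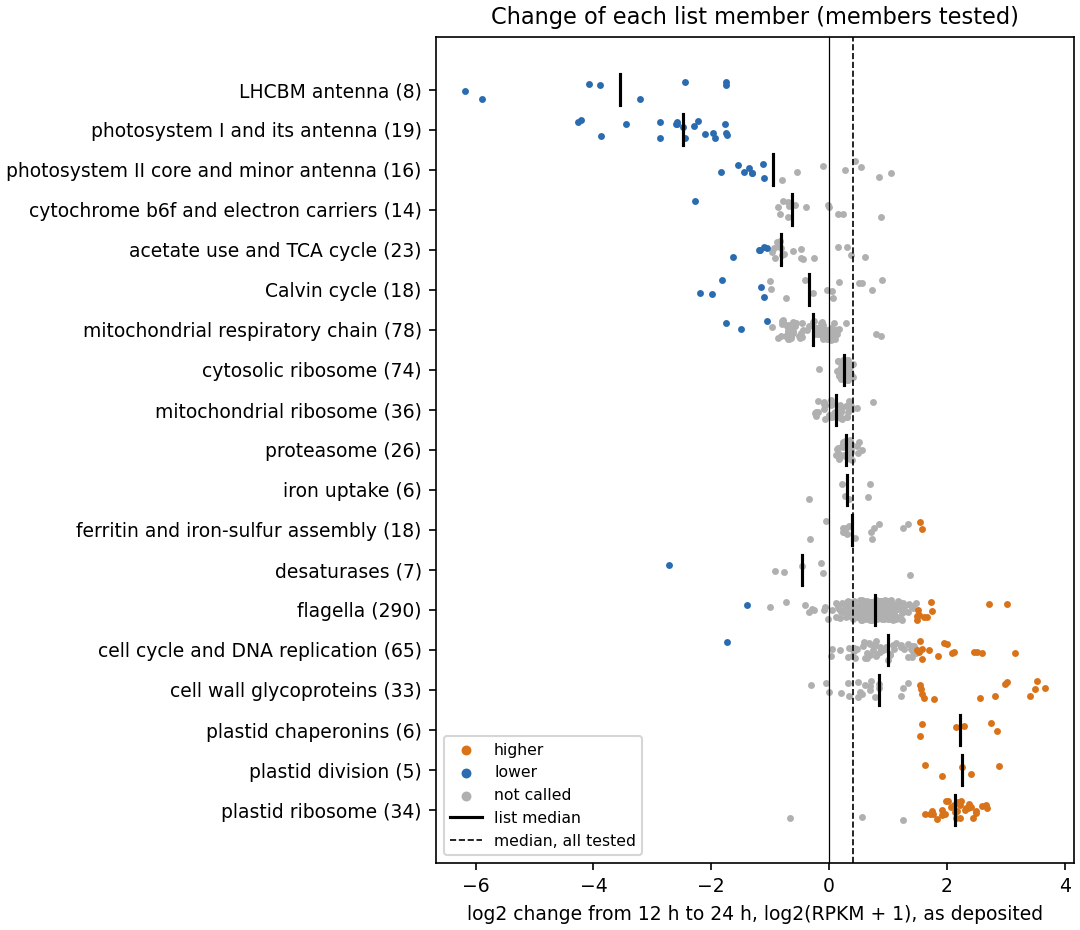
Log2 change from 12 to 24 h (horizontal, log2(RPKM + 1) as deposited) of each tested member of 19 gene lists, with the list median as a short bar and the median of all tested transcripts, 0.40, as a dashed line. LHCBM and photosystem I members lie wholly to the left, and plastid ribosome, chaperonin and division members lie mostly beyond 1.5 on the right.

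Photosystem II was split. Of 16 transcripts of its core and minor antenna 8 fell and 0 rose under both scalings, with a median of -0.95. PSBO, the manganese-stabilising protein of the oxygen-evolving complex, had 3212 and 2546 RPKM at 12 h and 1068 and 900 RPKM at 24 h and fell by 1.54 ± 0.08 (adjusted p = 9.41e-09). LHCB5, the minor antenna protein CP26, went from 2283 and 2491 RPKM to 626 and 710 RPKM, a change of -1.84 ± 0.08 (adjusted p = 1.57e-09), the largest of the 16. PSBP1, PSBR, PSBW, PSBX, PSBY1 and LHCB4 completed the 8, with changes from -1.44 to -1.10.

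PSBQ, another oxygen-evolving protein, had 2053 and 1935 RPKM at 12 h and 1477 and 1260 RPKM at 24 h. Its change of -0.55 ± 0.10 was under 2-fold as deposited, and -1.03 after centring. PSB28 had 155 and 128 RPKM against 210 and 174 RPKM, a change of 0.44 ± 0.09 that became -0.05 on centring. The PSBP-like transcripts PSBP4, PSBP5 and PSBP6 had positive changes under both scalings, of 0.54, 1.06 and 0.85 as deposited.

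Downstream carriers changed less. Of 14 transcripts of the cytochrome b6f complex and its carriers, 1 fell under both scalings (7.14%, beside 2.26% of all tested), with a median of -0.62 as deposited. After centring alone 8 were lower (57.1%, beside 6.31%). The faller under both scalings was FDX2, a ferredoxin, from 19.9 and 26.0 RPKM to 3.55 and 4.30 RPKM, a change of -2.28 ± 0.17 (adjusted p = 1.43e-07). PETN, a small subunit of the b6f complex, had 724 and 713 RPKM at 12 h and 378 and 406 RPKM at 24 h. Its change of -0.87 ± 0.09 was under 2-fold as deposited and past 2-fold after centring. Of 5 photoprotection transcripts tested 1 was called, LHCSR1, a stress-related antenna protein, a share above the 2.26% of all tested. It fell from 69.1 and 44.6 RPKM to 11.6 and 7.86 RPKM (log2 change -2.42 ± 0.26, adjusted p = 3.31e-06). The members went both ways, with changes from -2.42 to 1.14. After centring alone 3 were lower, and on the deposited values alone 1 was higher.

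Chlorophyll and heme synthesis had 4 of 20 transcripts lower (20%, beside 2.26% of all tested), with 0 higher and a list median of 0.25. CAO, which makes chlorophyll b, the pigment of the antenna, had 231 and 173 RPKM at 12 h and 61.2 and 50 RPKM at 24 h and fell by 1.84 ± 0.10 (adjusted p = 1.26e-08). CRD1, an aerobic cyclase subunit with a di-iron centre, fell by 1.39 ± 0.13, HEMA, the glutamyl-tRNA reductase that opens the path, by 1.36 ± 0.12, and CHLH1, the large subunit of magnesium chelatase, by 1.35 ± 0.12. Their 12 h values ran from 123 to 220 RPKM and their 24 h values from 52.7 to 86.7 RPKM, with no overlap.

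The plastid ribosome moved the other way. Of its 34 transcripts 31 rose (91.2%, beside 5.86% of all tested) and 0 fell, with a median change of 2.15, or 1.66 after centring. Their summed level was 2676 and 2425 RPKM at 12 h and 10390 and 10880 RPKM at 24 h. PRPL7/L12, the stalk protein that recruits translation factors, had 239 and 179 RPKM at 12 h and 1293 and 1216 RPKM at 24 h and rose by 2.60 ± 0.10 (adjusted p = 6.35e-10). PRPS6, of the small subunit, went from 44.8 and 49.3 RPKM to 267 and 349 RPKM, a change of 2.67 ± 0.09 (adjusted p = 2.03e-10). Members of both subunits were among the 31.

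Within the list the changes of the 31 were narrow, from 1.62 for PRPL33 to 2.68 for PSRP-3, one of the plastid-specific proteins. The exceptions were PSRP-1, PSRP-4 and PRPS1. PSRP-1, a plastid-specific protein related to factors that idle bacterial ribosomes, had 176 and 196 RPKM at 12 h and 121 and 113 RPKM at 24 h, a change of -0.66 ± 0.16 and of -1.15 after centring, where it counted as lower. PSRP-4 had 3.90 and 4.54 RPKM against 7.11 and 6.31 RPKM, a change of 0.56 ± 0.16. PRPS1, which binds messenger RNA in bacteria, had 128 and 114 RPKM at 12 h and 301 and 280 RPKM at 24 h, a change of 1.26 ± 0.07 that fell short of 2-fold after centring, at 0.78.

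The 12 h samples were the low point of this list over the whole series. Its summed level lay between 11160 and 16740 RPKM from 0 to 4 h, was 6956 and 6493 RPKM at 8 h, and was 7201 and 7434 RPKM at 48 h. The 24 h level was thus below the range of the first 4 h and above that of 8 and 48 h. The other ribosomes behaved differently under the same test. None of the 74 cytosolic ribosome transcripts was called in either direction, also when each scaling was taken alone. At an unadjusted p under 0.05 on the deposited values 65 were higher and 0 lower, all under 2-fold. Those values carry the general rise, and the share of all tested transcripts at that p was not counted, here and for the mitochondrial ribosome. After centring all 74 were below 0. Their changes ran from -0.16 to 0.41 (median 0.26, or -0.23 after centring). None of the 36 mitochondrial ribosome transcripts was called under either scaling, with 8 higher and 1 lower at an unadjusted p under 0.05 (median 0.13, or -0.36 after centring). Cytosolic ribosome transcripts held 31.3% and 31.5% of all RPKM at 12 h and 42.1% and 40.3% at 24 h.

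**Figure D3:**
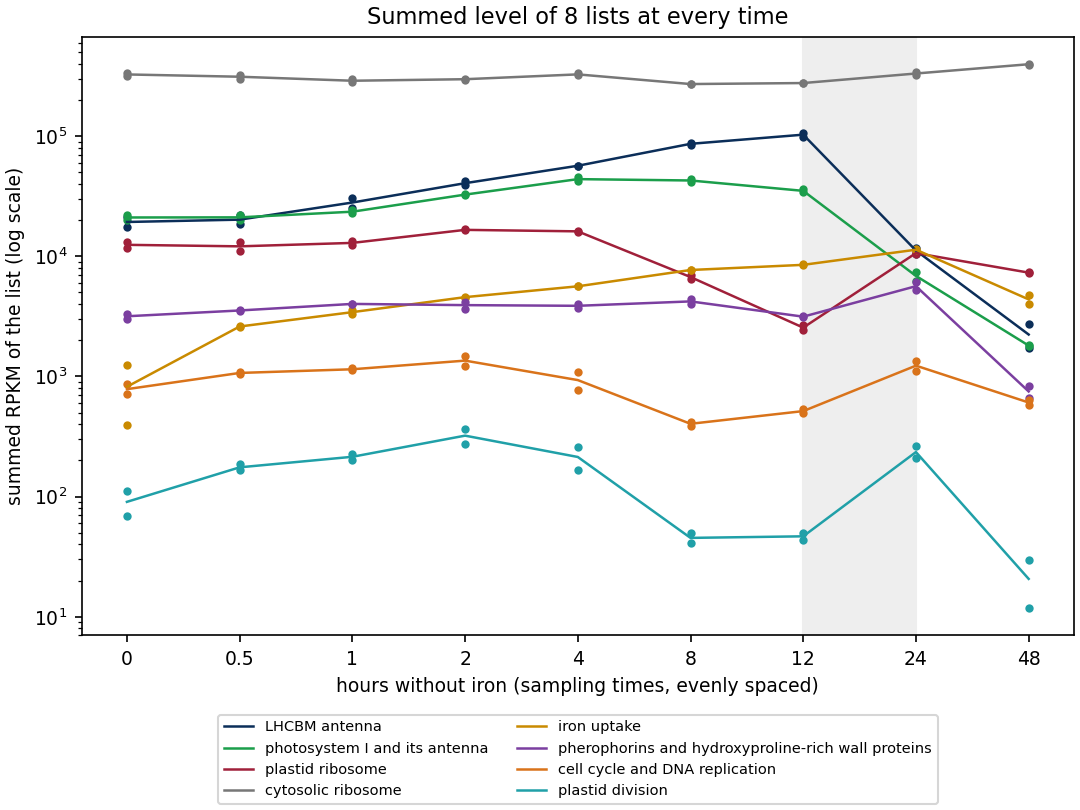
Summed RPKM of 8 gene lists (vertical, log scale) in each duplicate (points) and as the mean of both (lines) at the 9 times, which are evenly spaced on the horizontal axis; the grey band marks the step from 12 to 24 h. The LHCBM sum drops from 107300 and 98580 to 10520 and 11820 RPKM, the plastid ribosome sum climbs from its low at 12 h, and the division and wall lists peak at 24 h against 12 and 48 h.

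All plastid chaperonin and plastid division transcripts rose, and 3 of 7 for plastid import; these groups were put together after their values had been seen. Plastid chaperonins fold newly made stromal proteins such as the large Rubisco subunit. All 6 transcripts, CPN60A, CPN60B1, CPN60B2 and the co-chaperonins CPN11, CPN20 and CPN23, rose, with changes from 1.55 to 2.84. CPN60A had 12.2 and 14 RPKM at 12 h and 98.4 and 102 RPKM at 24 h and rose by 2.84 ± 0.11 (adjusted p = 6.73e-10). Its mean was 172 RPKM at 0 h and 51.1 RPKM at 48 h. Of the 63 chaperone transcripts tested as a whole 7 rose (11.1%, beside 5.86% of all tested) and 0 fell. The 7 were these 6 and DNJ13.

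Of 7 plastid import transcripts 3 rose (42.9%, beside 5.86% of all tested): Tic110, the scaffold of the inner translocon, TIC20, its channel protein, and TOC75, the channel of the outer envelope. Tic110 had 7.88 and 6.84 RPKM at 12 h and 43.1 and 39.7 RPKM at 24 h, a change of 2.34 ± 0.08 (adjusted p = 3.06e-10). TIC20 changed by 1.62 ± 0.09 and TOC75 by 1.60 ± 0.11. The receptor TOC34 changed by 1.40 ± 0.12, and by 0.91 after centring, short of 2-fold. Tic21/PIC1-2, a relative of a plastid permease linked to iron in plants, had 3.45 and 5.81 RPKM against 1.49 and 2.98 RPKM, a change of -0.81 ± 0.13, or -1.29 after centring, where it counted as lower. TIC40 and TIC22 changed by 0.28 and 0.55, or -0.21 and 0.06 after centring, and were not called.

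Plastid division transcripts, FTSZ1 and FTSZ2 for the division ring and MIND1, MINE1 and MINE2 for its placement, all rose. MINE1 had 6.90 and 7.70 RPKM at 12 h and 72.0 and 50.8 RPKM at 24 h, a change of 2.89 ± 0.21 (adjusted p = 1.19e-07). MIND1 went from 11 and 15.5 RPKM to 76.3 and 71.8 RPKM, a change of 2.41 ± 0.33 (adjusted p = 2.81e-05). FTSZ1 and FTSZ2 changed by 1.91 ± 0.23 and 1.62 ± 0.26. The summed level of the 5 was 43.7 and 49.8 RPKM at 12 h, 261.5 and 208.3 RPKM at 24 h and 29.6 and 11.8 RPKM at 48 h, so the 24 h values stood above both neighbours.

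Of 21 organelle RNA and translation factors, a group formed after values were seen, 4 rose (19.0%, beside 5.86% of all tested) and 0 fell. They were PPR7, a pentatricopeptide protein (1.59 and 1.22 RPKM at 12 h, 14.6 in both duplicates at 24 h, change 2.70 ± 0.13), PRFA1, a peptide chain release factor (change 2.25 ± 0.13), RAA2, which acts in splicing of a photosystem I messenger (change 1.77 ± 0.09), and INFA, an initiation factor (change 1.70 ± 0.11). EFG1, annotated as an elongation factor, had 279 and 212 RPKM against 190 and 176 RPKM. Of 12 aminoacyl-tRNA synthetases 2 rose under both scalings (16.7%, beside 5.86%), ASPS1 and SYK1. On the deposited values alone 7 did so (58.3%, beside 14.5% of all tested).

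Some of the cell cycle transcripts rose at 24 h. Of 65 tested members of the cell cycle and DNA replication list 15 rose (23.1%, beside 5.86%) and 1 fell; 33 were higher on the deposited values alone. The list median was 1.00, or 0.52 after centring. Of the 65, 13 reached 1 RPKM at one time only, and 3 of the 15 were among them. CYCB1, the B-type cyclin of mitosis, had 20.4 and 16.9 RPKM at 12 h and 133 and 92.7 RPKM at 24 h and rose by 2.52 ± 0.16 (adjusted p = 2.98e-08). CYCA1, an A-type cyclin, went from 4.41 and 5.45 RPKM to 55.9 and 48.2 RPKM, a change of 3.16 ± 0.21 (adjusted p = 4.17e-08). CDKB1, the plant-type mitotic kinase, went from 6.90 and 7.38 RPKM to 53.6 and 43.6 RPKM, a change of 2.60 ± 0.28 (adjusted p = 3.34e-06). In all 3 both 24 h values lay far above both 12 h values.

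WEE1, the kinase that restrains mitotic entry, rose by 2.46 ± 0.18, and CDC20, an activator of the anaphase promoting complex, by 2.09 ± 0.16. Replication proteins were PCN1, the sliding clamp (59.3 and 44.1 RPKM at 12 h, 193 and 125 RPKM at 24 h, change 1.58 ± 0.15), MCM3 and MCM4 of the replicative helicase, ORC4, RPA30 and RPA70B. CKS1, MAD2, SMC2 and TOP2, which act in the kinase complex, the spindle checkpoint, condensation and untangling of DNA, made up the remainder. CYCD4, a D-type cyclin, was the exception: it had 12.8 and 12.6 RPKM at 12 h and 2.83 and 3.49 RPKM at 24 h and fell by 1.73 ± 0.20 (adjusted p = 8.77e-06).

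The aurora-like kinases ALK3 and ALK2, of a family that acts on spindles, rose in a group of mitotic regulators formed after values were seen. Of its 8 tested members 3 rose (37.5%, beside 5.86% of all tested), these and CDC20, which was counted above as well. ALK3 had 3.23 and 4.51 RPKM at 12 h and 34.4 and 49.6 RPKM at 24 h (change 3.13 ± 0.18, adjusted p = 1.31e-08). ALK2 changed by 2.33 ± 0.21. The kinases ALK1 and ALK4 changed by 0.77 and 0.44, or 0.28 and -0.05 after centring, and APC8, APC10 and APC11 of the anaphase promoting complex by 0.32, 0.82 and 0.59, none of them called. Among 15 histone transcripts 1 was tested, the H2B variant HBV1, which rose from 1.07 and 1.19 RPKM to 5.70 and 5.38 RPKM (change 1.62 ± 0.14, or 1.46 and not called without 12 h duplicate 1); the others were under 1 RPKM at both times. The mean of CYCB1 was 68.7 RPKM at 0 h and 10.7 RPKM at 48 h, that of CDKB1 15.1 and 3.79 RPKM, and that of MCM3 3.30 and 17.0 RPKM, so MCM3 alone of these 3 was still near its 24 h level at 48 h.

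The wall of this alga is built of hydroxyproline-rich glycoproteins, among them pherophorins. Of 33 tested wall glycoprotein transcripts 13 rose (39.4%, beside 5.86%) and 0 fell, with a median of 0.85. The 13 included MMP2 and MMP11, metalloproteases of a family that digests walls. In a group of 24 pherophorins and other hydroxyproline-rich proteins, formed after values were seen and overlapping that list, 13 rose (54.2%) and the median was 1.56. PHC19 had 3.51 and 4.83 RPKM at 12 h and 55.0 and 74.1 RPKM at 24 h and rose by 3.66 ± 0.16 (adjusted p = 1.77e-09), the largest rise among transcripts with a symbol and at least 10 RPKM. GAS28, a wall protein also known from gametes, went from 15.9 and 21.7 RPKM to 175 and 280 RPKM, a change of 3.50 ± 0.28 (adjusted p = 2.53e-07). PHC15, the most abundant of those called, went from 125 and 124 RPKM to 823 and 948 RPKM, a change of 2.82 ± 0.12 (adjusted p = 1.62e-09).

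PHC4, PHC22, ISG-C2, ISG-C3 and VSP3 were also among the 12 largest rises, with changes from 3.02 to 3.53. The same transcripts were scarce at 48 h: the means there were 1.76 RPKM for PHC19, 4.86 RPKM for GAS28, 3.32 RPKM for ISG-C2 and 0.747 RPKM for VSP3. At 0 h they had been 62.5, 216, 132 and 41.0 RPKM. Pherophorins form a large family of similar sequences, so reads may be divided unevenly among them. Of 7 transcripts that mark the sexual cycle 3 were tested and none was called. GSP1 had 4.08 and 4.83 RPKM at 12 h and 2.69 and 3.70 RPKM at 24 h. That list does not hold GAS28 or GAS31, which were grouped with the wall proteins and both rose, GAS31 by 1.62 ± 0.13.

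Scavenger receptor-like proteins, extracellular or membrane proteins with cysteine-rich repeats, were grouped after values were seen. Of 17 tested 3 rose (17.6%, beside 5.86% of all tested), with 2 of those 3 under 1 RPKM at 12 h. SRR1 had 0.769 and 0.91 RPKM at 12 h and 15.8 and 16.8 RPKM at 24 h, a change of 3.23 ± 0.14 (adjusted p = 1.6e-09). LAL2, a La-like RNA-binding protein and the last of the named large rises outside a list, went from 2.32 and 3 RPKM to 34.3 and 31.9 RPKM, a change of 3.22 ± 0.14 (adjusted p = 1.64e-09).

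The share of flagellar transcripts called higher lay under that of all tested by the joint rule and above it on the deposited values. Of 290 tested, 10 rose (3.45%, under the 5.86% of all tested) and 1 fell under both scalings, while 52 (17.9%, beside 14.5%) were higher on the deposited values alone. The list median was 0.78, or 0.29 after centring, and 238 of the 290 (82.1%, beside 42.6% of all tested) were above 0 after centring. FAP212 had 76.7 and 78.3 RPKM at 12 h and 596 and 671 RPKM at 24 h, a change of 3.01 ± 0.25 (adjusted p = 3.5e-07), and its mean at 48 h was 12.4 RPKM. FAP172 changed by 2.72 ± 0.23, from 2.14 and 3.57 RPKM to 26.7 and 21.4 RPKM. FAP269 was the faller, from 30.7 and 23.0 RPKM to 8.93 and 10.2 RPKM, a change of -1.39 ± 0.15.

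**Figure D4:**
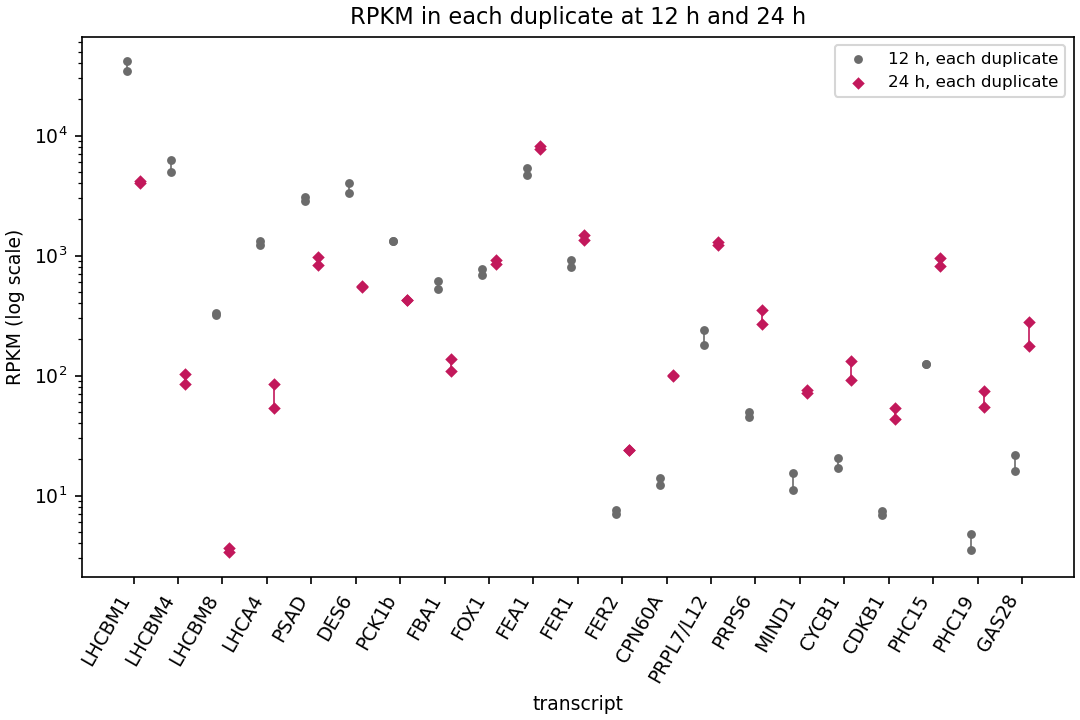
RPKM (vertical, log scale) of 21 transcripts in each duplicate at 12 h (circles) and 24 h (diamonds), with a line joining duplicates. Duplicates lie close together against the gaps between times for the LHCBM, LHCA, plastid and wall transcripts, and the iron uptake transcripts FOX1 and FEA1 show small gaps.

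No iron uptake transcript was called over this step. By limma-trend 0 of the 6 passed in either direction under either scaling, and at an unadjusted p under 0.05 on the deposited values 1 was higher and 0 lower. The share of all tested transcripts at that p was not counted. The list median was 0.31, or -0.18 after centring. FEA1, a secreted iron-binding protein, had a mean of 634 RPKM at 0 h, 5367 and 4693 RPKM at 12 h and 8159 and 7706 RPKM at 24 h. Its duplicates did not overlap, but the change of 0.66 ± 0.37 had an adjusted p of 0.127. That standard error draws on the duplicates of all times. The list's summed level was 1251 and 391.5 RPKM in the 0 h duplicates. FRE1, the ferric reductase, had 0.2 RPKM at 0 h, 1558 and 2050 RPKM at 12 h and 1151 and 1741 RPKM at 24 h, which overlap (change -0.34 ± 0.22, adjusted p = 0.191).

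FOX1, the ferroxidase, had 768 and 685 RPKM at 12 h and 912 and 844 RPKM at 24 h, a change of 0.27 ± 0.13 that became -0.21 after centring (adjusted p = 0.0769 and 0.194). FTR1, its partner permease, had 869 and 940 RPKM against 970 and 1140 RPKM, a change of 0.22 ± 0.15 that became -0.27. FOX2 had 7.80 and 8.59 RPKM against 10.6 and 10.8 RPKM, and its change of 0.35 ± 0.11 became -0.14. IRT1, a ZIP family transporter, had 27.2 and 14.8 RPKM against 35.5 and 30.8 RPKM (change 0.69 ± 0.47). FOX1, FRE1 and FEA1, which are known to rise when iron is short, were above their 0 h means of 87.3, 0.2 and 634 RPKM in all 4 columns.

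Of 18 transcripts in the ferritin and iron-sulfur assembly list 2 rose (11.1%, beside 5.86%) and 0 fell. The list also holds CNX2, CNX3 and CNX5, which belong to molybdenum cofactor synthesis, and its share and median include them. The list median of 0.39, or -0.10 after centring, was near the 0.40 and -0.08 of all tested. FER2, a ferritin subunit, had 7.05 and 7.60 RPKM at 12 h and 23.8 and 24.0 RPKM at 24 h and rose by 1.58 ± 0.09 (adjusted p = 1.93e-08). Its mean was 0.0649 RPKM at 0 h and 47.1 RPKM at 48 h. FER1, the major ferritin, had 912 and 804 RPKM at 12 h and 1484 and 1344 RPKM at 24 h, a change of 0.72 ± 0.17 as deposited (adjusted p = 0.00199) and of 0.24 after centring (adjusted p = 0.258), so it was not called. The duplicates of both ferritins did not overlap between times.

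Plastid iron-sulfur clusters are built by the SUF system. SUFC, the ATPase of its scaffold, had 23.6 and 16.7 RPKM at 12 h and 66.1 and 54.5 RPKM at 24 h and rose by 1.55 ± 0.10 (adjusted p = 3.11e-08); without 12 h duplicate 2 the change was 1.48 and not called. Its partners SUFD and SUFB changed by 1.35 ± 0.11 and 0.86 ± 0.11, and SUFE by 1.25 ± 0.14, each short of 2-fold after centring, at 0.86, 0.37 and 0.76. NFU3 changed by 0.77 ± 0.09 and the molybdenum cofactor transcript CNX3 by 0.72 ± 0.22. The changes of ISCA1, NFS1, SUFA, GRX5, NFU1, NFU2, ISU1 and CNX2 were between 0.23 and 0.44 as deposited and between -0.25 and -0.05 after centring, so their direction depends on the scaling. ISCA2 and CNX5 changed by -0.06 and -0.32.

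Among 7 desaturases, the enzymes that add double bonds to fatty acids, 1 was called, as lower (14.3%, beside 2.26% of all tested). DES6, the plastid omega-6 desaturase, had 4032 and 3309 RPKM at 12 h and 551 and 554 RPKM at 24 h and fell by 2.72 ± 0.10 (adjusted p = 2.97e-10). Its mean was 2850 RPKM at 8 h and 5957 RPKM at 48 h, so the 24 h level was low against both sides. FAD5D had 11.6 and 10.5 RPKM against 5.09 and 5.61 RPKM (change -0.92 ± 0.14, and -1.41 after centring), and the delta-12 desaturase Cre17.g711150 changed by -0.76 ± 0.13.

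FAB2, which makes the first double bond on the acyl carrier protein, had 319 and 367 RPKM against 226 and 272 RPKM (change -0.46 ± 0.08). FAD7, the omega-3 enzyme of the plastid, had 130 and 90.3 RPKM against 111 and 92.3 RPKM, which overlap, and Cre01.g037700 had 28.6 and 21.5 RPKM against 24.6 and 20.4 RPKM, which overlap as well. Cre06.g288650, an omega-6 desaturase-like transcript, changed by 1.37 ± 0.11, or 0.89 after centring. None of the 5 tested transcripts for plastid membrane lipids, the 5 for betaine lipid and phospholipids, the 2 annotated as GPD1 (glycerol-3-phosphate dehydrogenase) or the 9 for plastid fatty acid synthesis was called.

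Acetate enters metabolism through acetyl-CoA and the glyoxylate cycle, which feeds gluconeogenesis. Of 23 transcripts of acetate use and the TCA cycle 5 fell (21.7%, beside 2.26%) and 0 rose, with a median of -0.81; 15 were lower after centring alone (65.2%, beside 6.31%). PCK1b, which turns oxaloacetate into phosphoenolpyruvate, had 1326 and 1319 RPKM at 12 h and 426 and 427 RPKM at 24 h and fell by 1.63 ± 0.20 (adjusted p = 1.27e-05). ACS3, an acetyl-CoA synthetase, went from 815 and 890 RPKM to 346 and 404 RPKM (change -1.19 ± 0.10), and ICL1, isocitrate lyase, from 3476 and 3950 RPKM to 1598 and 1871 RPKM (change -1.10 ± 0.16). SCLA1 and OGD2 completed the 5. At 48 h the means were 1172 RPKM for PCK1b, 688 RPKM for ACS3 and 3021 RPKM for ICL1.

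In a group of 29 transcripts of glycolysis, gluconeogenesis and the pentose phosphate path, formed after values were seen, 8 fell (27.6%, beside 2.26%) and 2 rose (6.90%, beside 5.86%). The group overlaps other lists: among the 8, PCK1b was also counted under acetate use, and FBA1 and FBA3 also under the Calvin cycle. FBA1, a fructose-bisphosphate aldolase, had 524 and 610 RPKM at 12 h and 109 and 138 RPKM at 24 h and fell by 2.19 ± 0.09 (adjusted p = 8.57e-10), with a mean of 853 RPKM at 48 h. TAL1, transaldolase, went from 760 and 680 RPKM to 219 and 191 RPKM (change -1.81 ± 0.20). Of the triose phosphate translocators TPT1 fell, from 48.2 and 53.6 RPKM to 14 and 14.3 RPKM (change -1.78 ± 0.19), and TPT2 rose, from 2.65 and 2.24 RPKM to 19.7 and 18.9 RPKM (change 2.56 ± 0.14). TPT1 was the higher of the pair at 12 h and TPT2 at 24 h.

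The Calvin cycle, which fixes carbon, had 5 of 18 transcripts lower (27.8%, beside 2.26%) and 0 higher. GAP3, its glyceraldehyde-3-phosphate dehydrogenase, had 4018 and 3347 RPKM at 12 h and 989 and 867 RPKM at 24 h and fell by 1.98 ± 0.06 (adjusted p = 1.76e-10). SEBP1, sedoheptulose bisphosphatase, went from 880 and 1144 RPKM to 246 and 328 RPKM (change -1.82 ± 0.08); GAP1a, FBA1 and FBA3 were the others. Of 36 transcripts for concentrating inorganic carbon 4 fell (11.1%) and 0 rose. LCI9 had 106 and 71.1 RPKM at 12 h and 9.96 and 4.51 RPKM at 24 h (change -3.50 ± 0.31, adjusted p = 5.79e-07), and CCP2, CCP1 and NAR1.2 were the others. NAR1.2, an anion transporter, rested on uneven duplicates, with 8.26 and 2.34 RPKM at 12 h and 0.567 and 0.137 RPKM at 24 h. Without 12 h duplicate 1 its change was -1.50 and not called. CCP1 lay at the edge, with a change of -1.0 that was not called without the duplicate block, nor without any one duplicate (-1.24 to -0.77).

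Of 78 respiratory chain transcripts 3 fell (3.85%, near the 2.26% of all tested) and 0 rose under both scalings. After centring alone 30 were lower (38.5%, beside 6.31%), and the median was -0.26 as deposited. The 3 were COX11 and COX17, which help assemble cytochrome oxidase, with changes of -1.74 ± 0.17 and -1.49 ± 0.14, and ATP9B, a subunit of the ATP synthase rotor, with -1.06 ± 0.08. Starch metabolism had 2 of 22 lower (9.09%): ISA2, a debranching enzyme, from 25.3 and 20 RPKM to 4.44 and 4.53 RPKM, and the starch synthase SSS1. Fermentation had 2 of 11 lower (18.2%, beside 2.26%), PFR1 (pyruvate-ferredoxin oxidoreductase) and HCP1. Redox enzymes had 4 of 51 lower (7.84%), GPX5, TRXf1, PRX6 and VTE3, the last not called without 12 h duplicate 1 (-0.96); GPX5, a glutathione peroxidase, went from 197 and 205 RPKM to 66.3 and 63.2 RPKM (change -1.62 ± 0.12, adjusted p = 1.1e-07).

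Nutrient lists had few calls by number, on lists of 10 to 24 tested members. Sulfate supply had 2 of 24 higher (8.33%) and 1 lower (4.17%), shares near the 5.86% and 2.26% of all tested. MET16, the reductase that takes activated sulfate to sulfite, went from 19.6 and 16.4 RPKM to 86.9 and 89.0 RPKM (change 2.23 ± 0.09, adjusted p = 8.97e-10), ARS5, arylsulfatase-like, changed by 1.77 ± 0.10, and ATS1, the ATP sulfurylase one step before MET16, went from 1373 and 1264 RPKM to 581 and 596 RPKM (change -1.16 ± 0.08). Nitrogen supply had 2 of 20 lower, NAR1.2 and NII1, and phosphate supply 2 of 10, PHO1 and PTA3. Both shares lay well above the 2.26% of all tested, unlike those of sulfate supply, though on few calls. PTA3 was not called without 24 h duplicate 1 (-0.91). Peroxisomal PEX11 was the 1 called of 6 for fatty acid breakdown, lower at 24 h (16.7%). CER1 was the 1 called of 13 lipases, lower too (7.69%).

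Some longer lists held 1 call each, a share under the 5.86% of all tested. Among 24 organelle proteases 1 rose (4.17%), DEG9, from 4.59 and 3.21 RPKM to 37.8 and 29.8 RPKM (change 2.83 ± 0.20, adjusted p = 9.35e-08), with a mean of 106 RPKM at 48 h. Of 54 transcription factors 1 rose (1.85%), Cre13.g587000, with 1.37 and 1.43 and no call without 12 h duplicate 2 or 24 h duplicate 1, and of 25 exostosin-like glycosyltransferases 1 rose (4.00%), ELG6. None of the 26 proteasome, 6 autophagy, 12 other metal, 6 carotenoid, 12 amino acid and amine catabolism, 2 tubulin or 100 vesicle traffic transcripts was called. Over the 15 lists without a call, 198 of 304 tested members were higher and 14 lower at an unadjusted p under 0.05 on the deposited values. Deposited values carry the general rise, a median of 0.40 over all tested transcripts, for which the same share was not counted. The cytosolic ribosome gave 65 of the 198, and all its 74 members were below 0 after centring. Genes conserved in the green lineage went both ways, with 11 of 156 higher (7.05%) and 6 lower (3.85%), shares near those of all tested; CGL31 rose most, from 7.37 and 5.65 RPKM to 50.5 and 39.4 RPKM (change 2.61 ± 0.10), and CGL34 fell most (change -1.27 ± 0.10).

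The table gives no symbol to 10285 of the tested transcripts (77.3%), to 583 of the 780 higher (74.7%) and to 185 of the 301 lower (61.5%). Cre12.g548950 had 17913 and 22859 RPKM at 12 h and 457 and 633 RPKM at 24 h and fell by 5.23 ± 0.16 (adjusted p = 9.29e-11), and the table gives it no name. Cre17.g742128 fell by 3.56 ± 0.11, from 73.7 and 68.0 RPKM to 4.65 and 5.54 RPKM. Cre03.g176150 showed the largest rise of all, from 9.13 and 10.2 RPKM to 201 and 158 RPKM (change 4.07 ± 0.15, adjusted p = 3.23e-10). Cre02.g080600 rose by 3.98 ± 0.28, from 8.99 and 10.8 RPKM to 202 and 144 RPKM, and both risers were under 7 RPKM on average at 48 h.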

How the data were processed

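The deposited table holds RPKM, a unit read from the values since its header names none; the authors aligned Illumina reads with Bowtie, as the submitters' processing notes list. For its version, the build, strand use and the counting tool, nothing is given in the sources used here. Names of genes were those in the table. Columns were paired by duplicate number, which is in the column names; the duplicate differences at 12 and 24 h correlated at 0.565 across transcripts, and at 0.318 to 0.725 over 36 pairs of times. All 18 columns were fitted with limma-trend (limma 3.58.1, R 4.3.3) on log2(RPKM + 1), with a term for each time and the duplicate number as block, 8 residual degrees of freedom, and 0 columns were left unused. Transcripts needed a mean of at least 1 RPKM at 12 or 24 h. An exact test of 2 values against 2 cannot go below p = 0.333, so only the fit across all transcripts was used. Library sizes were recovered from the values, with a whole length found for 96.8% of transcripts within 0.05 reads (Python 3.11.15, numpy 2.4.6, pandas 2.3.3). The fit was tested on simulated data. Members, 46 gene lists and 8 later groups were chosen with earlier results of these data known. Named genes were the 12 largest rises and falls with a symbol and at least 10 RPKM, the 4 largest called changes of each list, all members of the iron uptake, ferritin and iron-sulfur, desaturase and LHCBM lists, and 2 rises and 2 falls without a symbol. Other members were named after their values were seen. The 18 alternatives were scaling, block, pseudocount, filter, thresholds and leaving out each duplicate.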

Additional observations from a re-analysis of the deposited data

How the results depend on the processing

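The main counts were 780 higher and 301 lower. On the deposited values alone 1931 were higher, and after centring on the median alone 840 were lower. A pseudocount of 0.1 gave 1359 higher, and one of 5 gave 370 higher and 187 lower. With no minimum fold there were 2861 higher and 1192 lower, and at 4-fold or more 97 and 58. Without the replicate block the counts were 769 and 294, and the block changed the call of 1 of the 144 named transcripts, CCP1 (-1.0). Upper-quartile centring, the 4 columns alone, no filter, a filter of 5 RPKM, a pseudocount of 0.5 and a threshold of 0.01 kept both counts within 1.5-fold. Leaving out one duplicate gave 764 to 810 higher and 302 to 333 lower, where a time left with 1 column is assumed to vary like the others.

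Among the 144 named transcripts, those that turned direction were all not called. For centring the rule fixes this, since a call needs the same direction under both scalings. Outside the 144, TIC40, ALK4 and PSB28 also turned on centring, among others. Centring gave FTR1 -0.27, FOX1 -0.21, FOX2 -0.14, ISCA1 -0.24, NFS1 -0.24, SUFA -0.19, GRX5 -0.24, NFU2 -0.25, ISU1 -0.15, CNX2 -0.05 and NFU1 -0.17. Without 24 h duplicate 2 ISCA2 was 0.1, and leaving out either 12 h duplicate moved FAD7 between -0.28 and 0.09. The cause was not tested. With 2 columns per time and libraries of 16.2 M to 28.4 M reads, transcripts near 1 RPKM rest on fewer reads than abundant ones. At the median length 3 reads are 0.0471 to 0.0822 RPKM in these libraries.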
